A study of Mus musculus with 35 samples.

Results

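Fatty acid oxidation and the tricarboxylic acid (TCA) cycle are the mitochondrial pathways that break fatty acids down to acetyl-CoA and oxidise acetyl-CoA to carbon dioxide. A fatty acid enters the mitochondrion as a carnitine ester, is shortened in repeated rounds of dehydrogenation, hydration, dehydrogenation and thiolysis, and passes its electrons to the respiratory chain through the electron transfer flavoprotein. Pyruvate joins the same acetyl-CoA pool through the pyruvate dehydrogenase complex, and white fat cells use the citrate made from it for fatty acid synthesis as well as for respiration. The genes described here were taken from a list of 35 symbols, 22 for fatty acid oxidation and 13 for the TCA cycle with the pyruvate dehydrogenase complex. Every probe set annotated to one of these symbols was used. The array carried 33 of the 35, among 8251 distinct gene symbols in the series. No probe set carried the symbol Cpt1b (the muscle form of carnitine palmitoyltransferase 1) or Hadha (the alpha subunit of the trifunctional protein) in the annotation used here, so 20 fatty acid oxidation genes and 13 TCA cycle genes were measured.

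The study measured RNA of perigonadal adipose tissue from C57BL/6J mice that were 22 weeks old, on 35 Affymetrix MG-U74Av2 arrays in 10 groups, with 1 array per sample. The untreated females were lean wild type (4 arrays), Ay/+ (4), which carry an agouti allele that makes them obese, or ob/ob (4), which lack functional leptin. The treated females were Ay/+ given pioglitazone (3), ob/ob given pioglitazone (3) and ob/ob given CL316243 (2). The males were lean wild type (4), ob/ob (4), wild type made obese by the diet D12451 (3) and wild type on that diet given pioglitazone (4). Pioglitazone activates PPAR gamma, the receptor that drives fat cell formation, and was dosed at 10 mg/kg/day. CL316243 activates the beta 3 adrenergic receptor of fat cells and was dosed at 3 mg/kg/day, and each drug ran for 2 weeks. The label of the pioglitazone-treated Ay/+ female replicate 3 gives no dose. The labels do not say whether the samples of a group came from separate animals, so the p-values measure only the spread between these samples, which may be technical.

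Levels are signals on arrays brought to a common 2% trimmed mean of 250. Differences are log2 fold changes of the scaled signal plus a pseudocount of 23, with the standard error (SE) of the fit, and they understate changes of dim genes. A gene was read by its main probe set, the one with the highest mean log2 signal, and called higher or lower at an adjusted p under 0.05, where p was adjusted over all 12422 probe sets tested. Tissue identity was checked on 10 adipocyte markers, whose summed signal ran from 16631 to 57127 over the 35 arrays. In a repeat of each count, 4 arrays that stood apart were left out. The share of all probe sets called in that repeat is not given, so its counts cannot be read against such a share. Replicate 1 of the Ay/+ females and replicate 4 of the ob/ob females had the lowest mean correlation with their own group (0.872 and 0.877), replicate 1 of the pioglitazone-treated diet-induced obese males had a Gapdh 3′ to 5′ ratio of 46.9, and the pioglitazone-treated Ay/+ array with no stated dose was added to them. The arrays fell into an earlier batch of 22 and a later batch of 13 that shared a deposited trimmed mean. The only later array of the Ay/+ females was replicate 1 and that of the ob/ob females replicate 4, both among those that stood apart. In lean females it was replicate 4. In bulk tissue, fewer cells of a type and less RNA per cell cannot be told apart, and this holds for every result below.

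Acadvl, the very long chain acyl-CoA dehydrogenase, read between 0.546 and 45.2 on all 35 arrays, mostly below the pseudocount, so no change in it could be resolved. Ehhadh, the peroxisomal bifunctional enzyme, was dim, at 6.61 to 43.2 in the untreated obese groups, and its differences are compressed. The 33 genes had 42 probe sets, and 9 genes had a second one. Of these second probe sets, those of Cpt2, Idh3a and Acadvl had group means no higher than 17.9 and carried little information. Acads, the short chain acyl-CoA dehydrogenase, had probe sets that disagreed, and both are given wherever it was called. The 35 genes lie on 18 chromosomes of the GRCm38.p6 assembly, with 5 of them on chromosome 9. Only 2 neighbouring pairs lie less than 1 Mb apart, Hadha with Hadhb and Idh3a with Etfa.

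Averaged over its members, each pathway stood highest in the pioglitazone-treated groups. The mean log2 level of the 20 fatty acid oxidation genes was 9.70 ± 0.29 (SD, n = 4) in lean females, 9.52 ± 0.18 in Ay/+ females and 9.53 ± 0.25 in ob/ob females. It was 10.46 ± 0.09 (n = 3) in pioglitazone-treated Ay/+ females and 10.30 ± 0.13 (n = 3) in pioglitazone-treated ob/ob females. CL316243-treated ob/ob females had 9.46 and 9.38. In males it was 9.75 ± 0.04 (n = 4) in the lean, 9.28 ± 0.08 (n = 4) in ob/ob, 9.59 ± 0.19 (n = 3) in the diet-induced obese and 10.43 ± 0.02 (n = 4) with pioglitazone. The 13 TCA cycle genes had a mean of 9.93 in lean females against 9.42 in Ay/+ and 9.43 in ob/ob females, and of 9.82 in lean males against 9.24 in ob/ob and 9.37 in diet-induced obese males. With pioglitazone their mean was 10.24, 10.18 and 10.10 in the Ay/+, ob/ob and diet-induced obese groups.

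**Figure D1:**
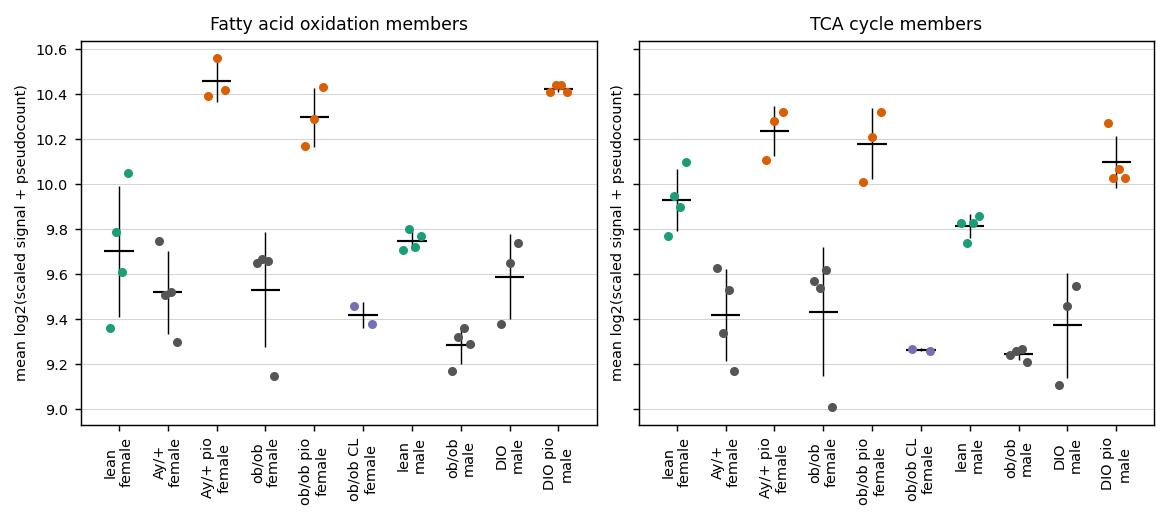
Mean log2(scaled signal + pseudocount) over the 20 fatty acid oxidation members (left) and the 13 TCA cycle members (right) on each array, by group; points are arrays, bars the group mean and vertical lines the SD (green lean, grey untreated obese, orange pioglitazone, purple CL316243). In both panels each pioglitazone array lies above every untreated obese array.

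In the fatty acid oxidation pathway, obesity in females moved few genes, and the genes called differed between the genetic models. In ob/ob females 1 of the 20 genes rose, Cpt1a, against 10.3% of all probe sets called higher. Etfb and Eci1 fell, against 14.0% called lower. In Ay/+ females Crat, Acadl and Etfdh fell and 1 probe set of Acads rose, against 11.5% of all probe sets lower and 6.26% higher. The median difference of the 20 genes was -0.22 in ob/ob and -0.10 in Ay/+ females, beside -0.18 and -0.06 over all probe sets. The share called was below that over all probe sets in ob/ob females, and both comparisons used the same 4 lean arrays.

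Cpt1a, the liver form of carnitine palmitoyltransferase 1, makes the acyl carnitine at the outer membrane and is the regulated entry step. Its signals were 568, 538, 596 and 653 in lean females and 1695, 1943, 1314 and 1551 in ob/ob females. The groups did not overlap, and the log2 difference was 1.42 (SE 0.26, adjusted p = 1.2e-04). Ay/+ females read 1625, 437, 523 and 380. Apart from replicate 1, an array that stood apart, these lay below the lean values, and the difference from lean was 0.07 (SE 0.26, adjusted p = 0.892). Between the obese genotypes Cpt1a was higher in ob/ob by 1.35 (SE 0.26, adjusted p = 4.7e-04). On the later arrays alone the difference was -0.07, where each group has 1 array and both are arrays that stood apart. The later steps of the shuttle, Slc25a20 (the carnitine acylcarnitine carrier of the inner membrane) and Cpt2 (which returns the acyl group to coenzyme A), were called in neither female obesity comparison. Crat, carnitine acetyltransferase, read 351, 183, 144 and 220 in Ay/+ females and 385, 379, 357 and 583 in lean females. All Ay/+ values lay below all lean values (-0.90, SE 0.25, adjusted p = 0.0110), and the call was lost without Ay/+ replicate 3 (-0.73). The second Crat probe set was not called (-0.85, SE 0.39).

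Acadl encodes the long chain acyl-CoA dehydrogenase and Etfdh the oxidoreductase that passes electrons from the flavoprotein to ubiquinone. Acadl read 366, 160, 190 and 141 in Ay/+ females and 484, 416, 421 and 825 in lean females, without overlap (-1.27, SE 0.25, adjusted p = 5.2e-04). In ob/ob females it read 341, 517, 337 and 260, overlapping both groups, and was not called against lean (-0.52, SE 0.25). Etfdh read 414, 151, 78.3 and 101 in Ay/+ females, of which the first lay within the lean range of 358, 454, 369 and 406 and the other 3 below it (-1.25, SE 0.31, adjusted p = 0.00444). The Etfdh difference was 0.03 on the later arrays alone, 1 per group, where the Ay/+ one was an array that stood apart. Acads rose in Ay/+ females on its main probe set, which read 253, 1090, 935 and 1105 against 405, 323, 488 and 360 (0.88, SE 0.30, adjusted p = 0.0383). Its other probe set was not called (0.63), and the call was lost without any of 6 single arrays, lean replicates 1, 2 and 4 and Ay/+ replicates 2, 3 and 4 (0.69 to 0.90).

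Acadm, the medium chain enzyme of the same step, was not called in ob/ob (0.29, SE 0.28) or Ay/+ females (0.39, SE 0.28) or between them (-0.10).

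Etfb, the beta subunit of the electron transfer flavoprotein, and Eci1, the isomerase that moves a double bond so that unsaturated chains can be oxidised, were the genes that fell in ob/ob females. Etfb read 1836, 1493, 1649 and 1503 in ob/ob females and 2732, 3121, 3007 and 3872 in lean females (-0.96, SE 0.24, adjusted p = 0.00448). Its second probe set also fell (-0.81, SE 0.27, adjusted p = 0.0266). Eci1 read 728, 721, 784 and 871 in ob/ob females and 1081, 1675, 1842 and 2086 in lean females (-1.05, SE 0.19, adjusted p = 1.5e-04). Neither gene's groups overlapped. Ay/+ females overlapped the lean ones for both, with Etfb at 4251, 3533, 3296 and 3749 (0.22, SE 0.24).

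Set against each other, ob/ob females had Cpt1a, Crat, Acadl and Etfdh higher than Ay/+ females and Acads, Etfb and Eci1 lower, against 11.7% of all probe sets higher and 9.93% lower. Eci1 differed by -1.37 (SE 0.19, adjusted p = 1.5e-05) and Etfb by -1.18 (SE 0.24, adjusted p = 0.00108), both without overlap, and the second probe set of Etfb was not called (-0.34). Crat differed by 1.04 (SE 0.25, adjusted p = 0.00333) and Etfdh by 1.04 (SE 0.31, adjusted p = 0.0153). The second Crat probe set was not called (0.92, SE 0.39). The Acads probe set that rose in Ay/+ females was lower in ob/ob by -1.26 (SE 0.30), and its other probe set was not called (-0.17). The Acadl difference of 0.75 (SE 0.25, adjusted p = 0.0262) was lost without any of Ay/+ replicates 2, 3 and 4 or ob/ob replicates 1 and 2 (0.58 to 0.77). That of Etfdh was lost without Ay/+ replicate 3 or 4 (0.77 and 0.87). On the later arrays alone, 1 per group, the differences were -0.54 for Crat, -0.62 for Etfdh, -0.46 for Acadl and 0.31 for the main Acads probe set, opposite in sign to those on all arrays. Those later arrays were Ay/+ replicate 1 and ob/ob replicate 4, which both stood apart from their groups, so batch and array cannot be told apart.

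With the TCA cycle genes, 8 of the 33 members were called in ob/ob females, 10 in Ay/+ females and 9 between them. Without the 4 arrays that stood apart these counts were 11, 17 and 15, and for the 2 groups alone they were 6, 4 and 2. Of all probe sets, 10.3% were called higher and 14.0% lower in ob/ob females and 6.26% and 11.5% in Ay/+ females. Between the genotypes the shares were 11.7% and 9.93%. The share of members called in ob/ob females was near that of all probe sets. Brown fat markers and skeletal muscle markers moved with these differences. The summed signal of 8 brown fat markers was 3324 to 7447 in lean females, 720 to 1774 in Ay/+ and 378 to 442 in ob/ob females, with 4 of the 8 lower in Ay/+ and 5 in ob/ob. Ucp1, the uncoupling protein that defines brown fat, was at 855 ± 496 (SD, n = 4) in lean and 16.1 ± 15.4 (n = 4) in ob/ob females. Of 19 skeletal muscle markers, 10 were lower in ob/ob and 5 in Ay/+ females, with sums of 4414 to 12601 in lean, 3826 to 5323 in Ay/+ and 2886 to 7413 in ob/ob females. The sums of 13 macrophage markers were 3729 to 7753, 9015 to 16946 and 24463 to 31947 in the same order, with 7 higher in Ay/+ and 11 in ob/ob. Of 7 endothelial markers, 1 was lower in Ay/+ and 3 in ob/ob females (Kdr, Tie1 and Flt1), with sums of 4429 to 7015, 2069 to 5341 and 3139 to 7831. The sums of 10 adipocyte markers were 28091 to 47042, 39447 to 57127 and 23109 to 35041. Against lean, Lep and Cidec were higher in both models, and in ob/ob Cd36 was higher and Retn, Rbp4 and Lpl lower. Adipoq, Retn, Rbp4 and Lpl were lower in ob/ob than in Ay/+ females. The Gapdh 3′ to 5′ ratio was 1.31 to 2.51 in lean and 0.741 to 1.02 in Ay/+ females, and in ob/ob females it was 0.708, 0.813, 0.852 and 1.85. Their part in the results was not tested.

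**Figure D2:**
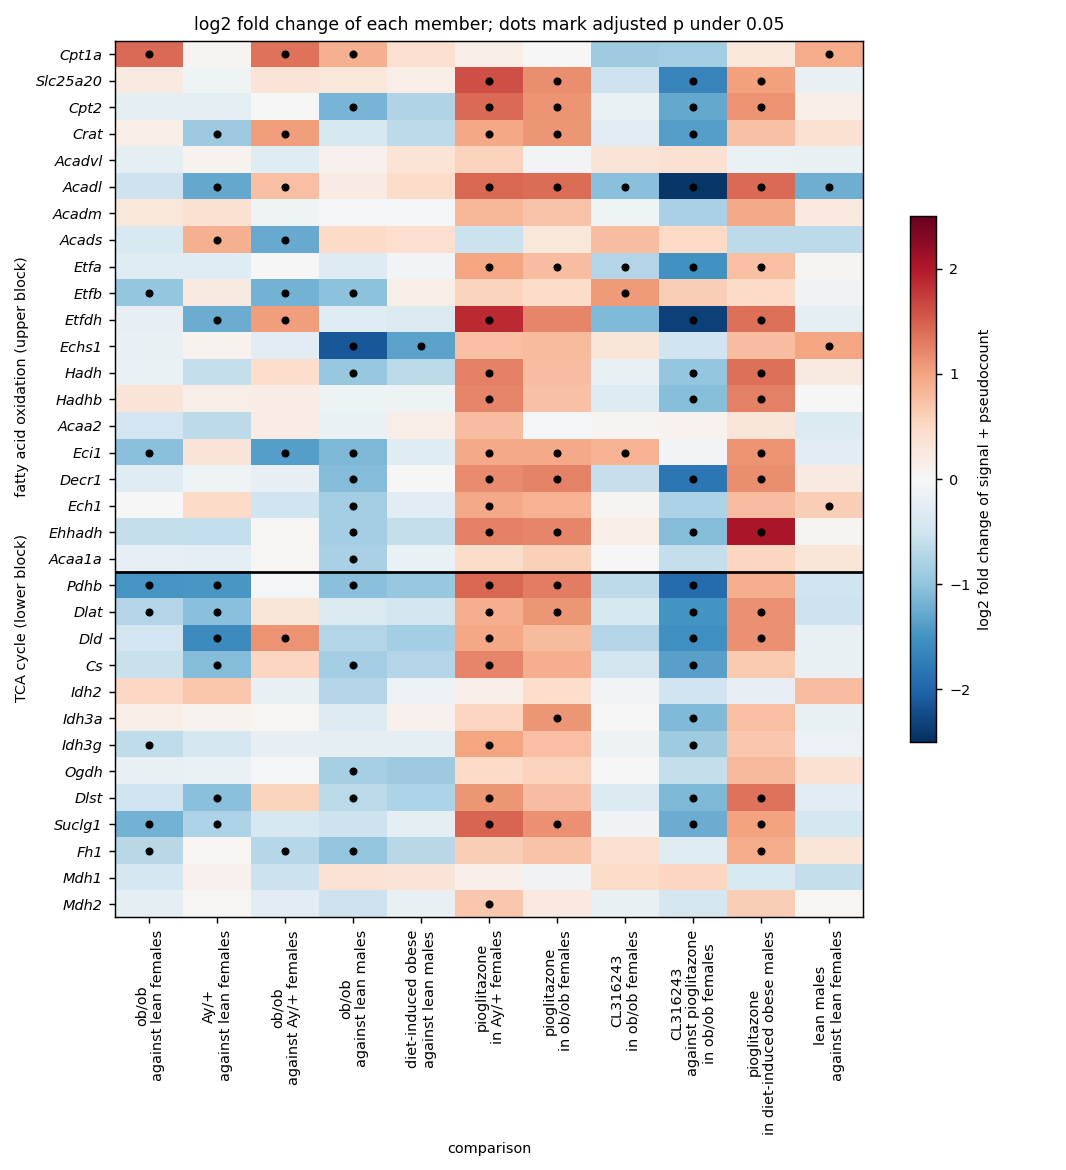
log2 fold change of each of the 33 measured members (rows, fatty acid oxidation above the line and TCA cycle below, in pathway order) in 11 comparisons (columns); red is higher and blue lower in the first-named or treated group, and a dot marks an adjusted p under 0.05. The 3 pioglitazone columns hold red dots and no blue ones, and the column of ob/ob against lean males holds the most dots among the obesity comparisons.

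**Figure D3:**
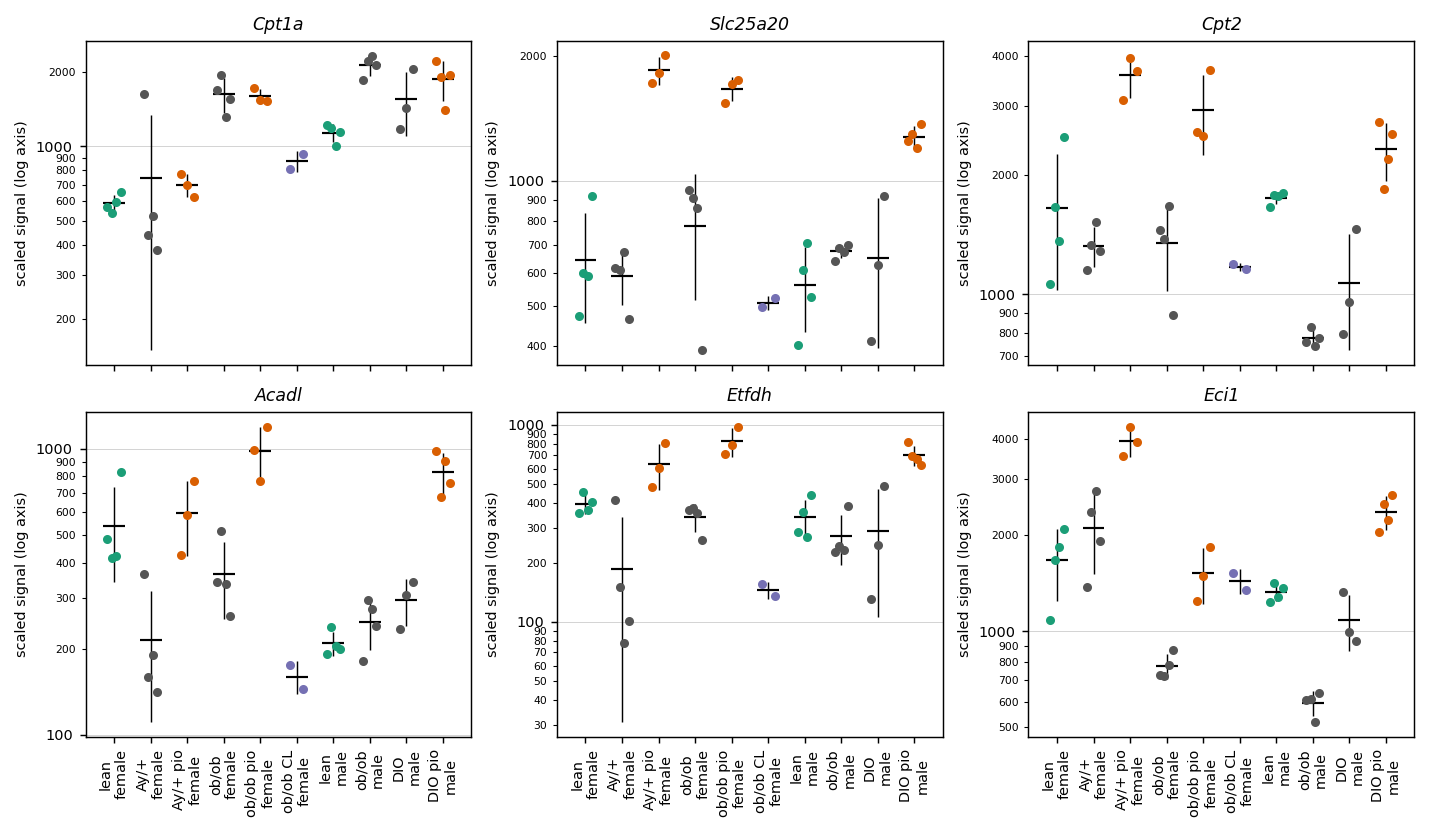
Scaled signal (log axis) of 6 fatty acid oxidation genes on each array, by group; points are arrays, bars the group mean and vertical lines the SD, in the colours green for lean, grey for untreated obese, orange for pioglitazone and purple for CL316243. Cpt1a is high in ob/ob mice of both sexes, while the other genes shown are higher with pioglitazone than in the untreated obese group of each model.

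In males, fatty acid oxidation genes of most steps were lower in ob/ob mice. Of the 20 genes 9 fell, against 4.96% of all probe sets, and 1 rose, Cpt1a, against 5.62%. The median difference was -0.37, beside 0.06 over all probe sets. The genes that fell were Cpt2, Etfb, Echs1, Hadh, Decr1, Eci1, Ech1, Ehhadh and Acaa1a. The isomerases and the reductase that handle unsaturated chains all fell, as did both peroxisomal members, while none of the acyl-CoA dehydrogenases was called.

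Echs1, the short chain enoyl-CoA hydratase, had the largest decrease. It read 1720, 1518, 1636 and 2129 in lean males and 461, 327, 457 and 306 in ob/ob males (-2.12, SE 0.29, adjusted p = 2.1e-06). Cpt2 read 1665, 1788, 1771 and 1799 in lean males and 758, 827, 741 and 776 in ob/ob males (-1.16, SE 0.21, adjusted p = 1.9e-04). Both genes had tight groups with a wide gap between them. Eci1 went from 1232, 1416, 1281 and 1363 to 607, 612, 518 and 640 (-1.13, SE 0.19, adjusted p = 6.7e-05). Decr1, the dienoyl-CoA reductase, went from 740, 685, 511 and 550 to 251, 293, 285 and 279 (-1.09, SE 0.26, adjusted p = 0.00351). Etfb went from 3222, 2920, 3252 and 2519 to 1059, 2018, 1297 and 1526 (-1.03, SE 0.24, adjusted p = 0.00335), and its second probe set did not follow (-0.02). None of these groups overlapped.

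The other decreases were smaller. Hadh, the hydroxyacyl-CoA dehydrogenase, fell by 0.95 (SE 0.22), Ech1, a dienoyl-CoA isomerase, by 0.87 (SE 0.22), Ehhadh by 0.84 (SE 0.26) and Acaa1a, the peroxisomal thiolase, by 0.82 (SE 0.19). Acaa1a has a near-identical copy, Acaa1b, and the array may not separate them. Cpt1a went the other way, from 1216, 1188, 999 and 1145 in lean to 1856, 2215, 2327 and 2125 in ob/ob males (0.89, SE 0.26, adjusted p = 0.0171), a call lost without lean replicate 3 or ob/ob replicate 3 (0.83 and 0.85) and with batch as a block (0.63). Acadm, the medium chain acyl-CoA dehydrogenase, read 2810, 2492, 2881 and 2883 against 2506, 3237, 2264 and 3005, overlapping (-0.02, SE 0.28).

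Adipocyte, macrophage and endothelial markers moved with the male comparison. Of 10 adipocyte markers 5 fell, with sums of 32310 to 38439 in lean and 16631 to 25271 in ob/ob males. Of 13 macrophage markers 12 rose, with sums of 8196 to 9962 against 33982 to 48189. Of 7 endothelial markers 5 fell, by 0.92 (Tek) to 1.51 (Kdr), with sums of 6278 to 8397 against 2939 to 4236. The part of these markers in the results was not tested. Ucp1 was near 0 in both groups, at 9.50 ± 5.03 in lean and 7.50 ± 1.43 in ob/ob males (SD, n = 4 each). Another brown fat marker, Cidea, was lower in ob/ob males (-1.97, SE 0.36, adjusted p = 1.5e-04). Brown fat markers had sums of 578 to 1047 in lean and 324 to 411 in ob/ob males, and their part was not tested. The ob/ob male replicate 1 had a summed signal of 5705 for 6 markers of the male tract and ovary, against 152 to 192 in lean males. All ob/ob males were on later arrays, with lean males split between batches. On the later arrays alone 17 of the 33 members were called, beside 15 in all and 19 without the 4 arrays that stood apart. No scan day held both groups, so day and genotype cannot be told apart.

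Diet-induced obesity in males gave 1 call in the pathway. Echs1 read 536, 836 and 694 in the obese, all below the lean males (-1.33, SE 0.31, adjusted p = 0.0163), against 0.628% of all probe sets lower and 1.22% higher. The call was lost without lean replicate 4 or obese replicate 1 or 3 (-1.35 to -1.17). Cpt1a read 1178, 1435 and 2055, and 2 of the 3 lay above every lean male (0.41, SE 0.28, adjusted p = 0.676). Cpt2 read 793, 956 and 1460, all below the lean males, and was not called (-0.75), nor was Acadm (-0.04). Over both pathways 1 member was called, and without the 4 arrays that stood apart 9 were. This comparison and that of ob/ob males used the same lean arrays. Of the 13 macrophage markers 7 rose, with sums of 27699 to 32338, and their part was not tested.

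The ob/ob effect was set against itself in the 2 sexes with an interaction term. It differed for 1 of the 33 members, against 5.68% of all probe sets. Echs1 read 570, 1042, 526 and 1772 in lean females and 913, 824, 1000 and 425 in ob/ob females, overlapping (-0.19), so the male effect exceeded the female one by a log2 difference of -1.93 (SE 0.41, adjusted p = 0.00434). That difference was -0.02 on the later arrays alone, with 1 array in each female group, and was not called with scan day as a random block (-1.63). The later ob/ob female array was replicate 4, which stood apart. Without the 4 arrays that stood apart, 11 members differed between the sexes, a count given without the share of all probe sets called in that repeat. Leaving out ob/ob female replicate 4 alone gave 6, lean female replicate 4 gave 3, and lean male replicate 3 or ob/ob male replicate 1 gave 2.

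Fatty acid oxidation genes rose with pioglitazone in all 3 models. Each group of steps described below held a gene called higher in at least 1 model. The entry step (Cpt1a) and the hydratase Echs1 were not called in any model. In Ay/+ females 12 of the 20 genes rose, in ob/ob females 8 and in diet-induced obese males 10, and none fell. The shares of all probe sets called higher were 2.13%, 0.733% and 0.757%, and lower 0.910%, 0.330% and 0.660%. The median difference of the 20 genes was 0.95, 0.79 and 0.86, beside 0.05, -0.05 and -0.08 over all probe sets. The 3 comparisons share no arrays. The genes called in every model were 7, namely Slc25a20, Cpt2, Acadl, Etfa, Eci1, Decr1 and Ehhadh. Cpt1a, Acadvl, Acadm, Acads, Etfb, Echs1, Acaa2 and Acaa1a were called in none of the 3.

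In the carnitine shuttle the inner membrane steps rose and the entry step did not pass the test. Slc25a20 went from 615, 608, 674 and 464 in untreated to 1722, 1822 and 2005 in treated Ay/+ females (1.62, SE 0.25, adjusted p = 5.9e-05). The ob/ob females went from 949, 910, 861 and 390 to 1539, 1715 and 1752 (1.16, SE 0.25, adjusted p = 0.0101). In diet-induced obese males it went from 410, 626 and 921 to 1246, 1298, 1197 and 1374 (1.02, SE 0.25, adjusted p = 0.0215). No treated value overlapped an untreated one in any model, and the lean mice read 473 to 917 (females) and 403 to 709 (males). Cpt2 rose by 1.42 (SE 0.23), 1.12 (SE 0.23) and 1.13 (SE 0.23) in the same order, to 3095, 3956 and 3677 in Ay/+ females, 2566, 2513 and 3697 in ob/ob females and 2722, 1847, 2196 and 2542 in males. Crat rose in Ay/+ (0.96, SE 0.27) and ob/ob females (1.11, SE 0.27) and was not called in males (0.74, SE 0.27, adjusted p = 0.231). On the second Crat probe set, untreated and treated arrays overlapped in each model. Its means without and with the drug were 53.0 and 71.1 in Ay/+ females, 121 and 161 in ob/ob females and 80.5 and 142 in males. Cpt1a differed by 0.17 (SE 0.28), -0.01 (SE 0.28) and 0.28 (SE 0.28), and in ob/ob females it read 1729, 1540 and 1527 with the drug and 1314 to 1943 without it.

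Among the acyl-CoA dehydrogenases only the long chain enzyme was called. Acadl reached 424, 587 and 772 in treated Ay/+ females (1.43, SE 0.26, adjusted p = 9.2e-04). Treated ob/ob females read 986, 773 and 1187 (1.40, SE 0.26, adjusted p = 0.00270). In diet-induced obese males it went from 235, 309 and 341 to 977, 675, 907 and 760 (1.42, SE 0.26, adjusted p = 0.00156). Every treated value lay above every untreated one of its model. Acadm was also higher without overlap in each model, by 0.83, 0.71 and 0.94 (SE 0.30 each), and did not pass the test. It read 5253, 7584 and 4127 in treated and 3526, 2627, 3236 and 2950 in untreated Ay/+ females. The log2 difference on the main Acads probe set was -0.54, 0.29 and -0.65 and on the other 0.67, 1.24 and 0.79, none called, so its probe sets disagreed in sign in Ay/+ females and in males.

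The electron carriers rose in part. Etfa, the alpha subunit of the flavoprotein, rose by 0.99 (SE 0.19), 0.78 (SE 0.19) and 0.76 (SE 0.19) in the 3 models. Its treated arrays read 1630, 1698 and 1859, then 1354, 1498 and 1622, then 1523, 2102, 2065 and 1624. Etfdh rose by 1.87 in Ay/+ females (SE 0.33, adjusted p = 5.4e-04), to 484, 604 and 810. It rose by 1.38 in diet-induced obese males (SE 0.33, adjusted p = 0.0194), from 130, 247 and 488 to 819, 692, 668 and 628, and was not called in ob/ob females (1.22, SE 0.33), where 707, 794 and 975 all exceeded the untreated arrays. Etfb, the beta subunit, had differences of 0.56, 0.45 and 0.48 that were not called.

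At the hydration, dehydrogenation and thiolysis steps Hadh and Hadhb rose in 2 models each. Hadh rose by 1.25 (SE 0.24) in Ay/+ females and by 1.38 (SE 0.24) in males, and Hadhb, the thiolase subunit of the trifunctional protein, by 1.23 (SE 0.27) and 1.26 (SE 0.27). For ob/ob females they differed by 0.78 and 0.74 and were not called. Echs1 had differences of 0.75, 0.80 and 0.78 and Acaa2, the mitochondrial thiolase, of 0.77, -0.02 and 0.31, and neither was called. Of the auxiliary enzymes, Eci1 rose by 0.94 (SE 0.21), 0.94 (SE 0.21) and 1.12 (SE 0.21), and Decr1 by 1.18 (SE 0.28), 1.24 (SE 0.28) and 1.16 (SE 0.28). Ech1 was called in Ay/+ females alone (0.95, SE 0.23), with 0.87 and 0.77 elsewhere. In the peroxisome Ehhadh rose from 18.7, 37.5 and 33.6 to 290, 142, 205 and 160 in males, its largest change (2.04, SE 0.28, adjusted p = 1.6e-05). It reached 74.1, 131 and 86.7 in Ay/+ females (1.26, SE 0.28) and 95.7, 76.0 and 120 in ob/ob females (1.23, SE 0.28).

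**Figure D4:**
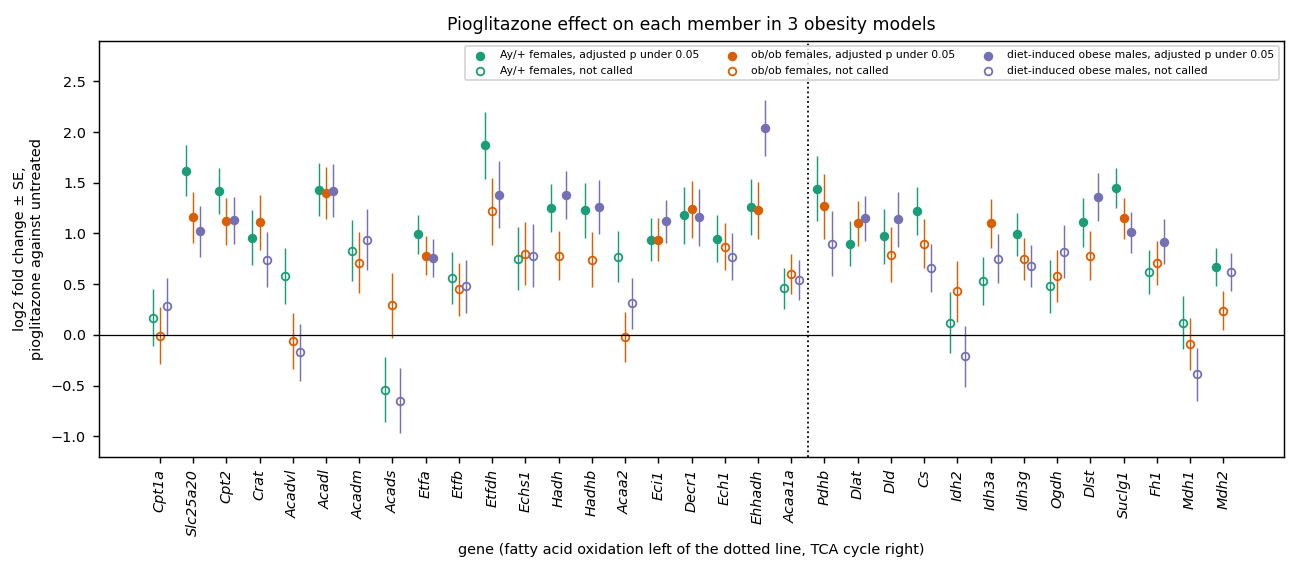
log2 fold change with SE of each of the 33 members, pioglitazone against untreated, in Ay/+ females (green), ob/ob females (orange) and diet-induced obese males (purple); filled points have an adjusted p under 0.05 and open points do not. 27 of the 33 members were estimated higher in all 3 models, and Cpt1a, Acads, Acadvl, Acaa2, Idh2 and Mdh1 were the exceptions.

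Over both pathways 20, 12 and 15 members were called in the Ay/+, ob/ob and diet-induced obese models, and 26, 12 and 17 without the 4 arrays that stood apart. Interaction terms between the models, fitted with limma, called 0 of the 33 members, and 1, 2 and 0 had an unadjusted p under 0.05. In the same order, 0.0242% of all probe sets differed between ob/ob and Ay/+ females, 0.00805% between the males and ob/ob females and 0.00% between the males and Ay/+ females. The standard error of these differences was 0.27 to 0.47, which limits how small a difference between models could be resolved. Brown fat markers moved with the drug in every model, with 4 of 8 higher in each. Their summed signal was 3507 to 10702 in treated Ay/+ females, 2487 to 4197 in treated ob/ob females and 2299 to 4661 in treated males, against 690 to 892 in untreated obese males. Ucp1 went from 86.4 ± 88.1 to 2010 ± 1460 (SD) in Ay/+ females, from 16.1 ± 15.4 to 1270 ± 271 in ob/ob females and from 13.7 ± 10.9 to 149 ± 70.6 in males. No adipocyte marker rose, and Rbp4 fell in ob/ob females (-0.99, SE 0.21) and in males (-0.86, SE 0.21). The macrophage marker Cd14 (-0.97) and the muscle marker Pvalb (-1.35) fell in Ay/+ females, and the muscle marker Acta1 in ob/ob females (-1.96). Their part in the results was not tested.

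The pioglitazone counts depended on the spread shared over all 35 arrays. Fitted on the 2 groups alone with limma, 6 members were called in Ay/+ females, 0 in ob/ob females and 5 in males. The treated ob/ob arrays came from 1 scan day that held no untreated array, so day and drug cannot be told apart, and 6 members were called with scan day as a random block. In that model the count ran from 1 (without treated replicate 3) to 14 when 1 array was left out, and was 4 without treated replicate 2 and 6 without untreated replicate 4. Among single genes in ob/ob females, Slc25a20, Decr1 and Idh3a were lost without untreated replicate 4 or treated replicate 2 or 3 (0.86 to 1.13, 1.02 to 1.21 and 0.94 to 1.10). Acadl (1.25) and Cpt2 (0.94) were lost without treated replicate 3, Dlat without treated replicate 2 or 3 (1.04 and 1.06) and Ehhadh without treated replicate 1 or 3 (1.10 and 1.24). In males the count fell to 6 without untreated replicate 1. Hadhb (1.01) and Suclg1 (0.85) were lost without that array, and Etfdh and Fh1 without it, untreated replicate 2 or treated replicate 1 (0.96 to 1.37 and 0.79 to 0.94). In Ay/+ females Ehhadh was lost without treated replicate 2 (1.06).

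CL316243 did not give the pattern of pioglitazone. With 2 treated ob/ob females, 2 of the 20 fatty acid oxidation genes were called higher, Etfb and Eci1, against 1.55% of all probe sets. Acadl and Etfa were called lower, against 2.18%. The median difference was -0.13, beside 0.00 over all probe sets. Etfb read 3689 and 3121 (1.06, SE 0.30, adjusted p = 0.0410) and Eci1 1524 and 1346 (0.87, SE 0.24, adjusted p = 0.0351), both above all untreated arrays. The second Etfb probe set did not follow (-0.04, SE 0.33). Acadl read 175 and 145 (-1.04, SE 0.30, adjusted p = 0.0445) and Etfa 485 and 528 (-0.74, SE 0.22, adjusted p = 0.0496), both below all untreated arrays. Cpt1a read 809 and 929, below the untreated 1314 to 1943, and was not called (-0.88, SE 0.31, adjusted p = 0.110), nor was Acadm (-0.11).

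These 4 calls were fragile. Each was lost without any one of untreated replicates 1, 2 and 3 or either treated array, with values of 0.94 to 1.18 for Etfb, 0.78 to 0.96 for Eci1, -1.16 to -0.87 for Acadl and -0.80 to -0.61 for Etfa. No call held with scan day as a random block, and the treated arrays shared a scan day with no untreated one, so day and drug cannot be told apart. Without untreated replicate 4, an array that stood apart, 8 members were called, and 13 were without all 4 such arrays. Of the 8 brown fat markers 2 rose, with sums of 1287 and 1628 against 378 to 442, and Ucp1 was at 61.3 ± 1.12 (SD, n = 2). The adipocyte markers Lep (1.35, SE 0.35) and Retn (1.21, SE 0.35) were called higher and the muscle marker Acta1 lower (-2.39, SE 0.56). Their part was not tested.

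Compared directly, 10 of the 20 genes were lower with CL316243 than with pioglitazone and none was higher, against 4.69% and 2.91% of all probe sets. The median difference was -0.92, beside 0.07 over all probe sets. Acadl differed by -2.44 (SE 0.32, adjusted p = 5.5e-06), Etfdh by -2.33 (SE 0.40, adjusted p = 3.3e-04) and Decr1 by -1.81 (SE 0.33, adjusted p = 7.0e-04). Slc25a20 differed by -1.67 (SE 0.29) and Etfa by -1.51 (SE 0.23). Etfdh read 155 and 135 with CL316243 and 707, 794 and 975 with pioglitazone, and Decr1 276 on both arrays against 955, 1069 and 1065. Cpt1a (-0.86, SE 0.33) and Acadm (-0.81, SE 0.36) did not pass the test. The second Acads probe set was also lower (-1.35, SE 0.43), just past the threshold, where the main one was not called (0.50, SE 0.39). The doses differed, each drug filled its own scan day, so day and drug cannot be told apart, and both comparisons with untreated ob/ob females used the same untreated arrays.

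Lean males and lean females differed in 4 fatty acid oxidation genes. Cpt1a (0.92, SE 0.26, adjusted p = 0.0148), Echs1 (0.99, SE 0.29, adjusted p = 0.0214) and Ech1 (0.62, SE 0.22, adjusted p = 0.0454) were higher in males, against 5.22% of all probe sets. Acadl was lower, at 192, 238, 205 and 200 against 484, 416, 421 and 825 (-1.22, SE 0.25, adjusted p = 0.00131), against 10.5% of all probe sets. The groups overlapped for Echs1 and not for the other 3. Echs1 was lost without lean female replicate 1 or 3 or lean male replicate 4 (0.76 to 0.89) and was -0.13 on the later arrays. Ech1 was lost without any lean array but female replicate 2 (0.48 to 0.67). No TCA cycle gene was called with limma in this comparison, and 4 had an unadjusted p under 0.05. Cs (-0.19, SE 0.22), Idh3a (-0.18, SE 0.22), Ogdh (0.39, SE 0.24) and Acadm (0.24, SE 0.28) were not called. The 4 calls of this comparison became 9 without the 4 arrays that stood apart, 2 with scan day as a random block and 1 on the later arrays. They became 2 without lean female replicate 1 or 3 or lean male replicate 4. Brown fat markers had sums of 578 to 1047 in lean males and 3324 to 7447 in lean females, and 11 of 19 skeletal muscle markers were lower in males. Their part was not tested.

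TCA cycle genes were called only lower in the obesity comparisons against lean mice, with Pdhb, Dlat and Suclg1 lower in both female models, which share their lean arrays. Of the 13 genes, 5 fell in ob/ob females, 6 in Ay/+ females and 5 in ob/ob males. The median differences were -0.50, -0.43 and -0.67, and -0.46 in diet-induced obese males, where limma called none and 7 had an unadjusted p under 0.05. Over all probe sets the medians were -0.18, -0.06, 0.06 and 0.03, and the shares of all probe sets called in each comparison are those given above. The pyruvate dehydrogenase complex held the largest decreases in Ay/+ females, those of Dld and Pdhb. In ob/ob females Pdhb fell most, followed by Suclg1 of succinyl-CoA ligase.

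Pdhb, the beta subunit of the decarboxylase of that complex, read 3132, 4566, 2617 and 3861 in lean females. It read 1727, 964, 1679 and 895 in Ay/+ females (-1.45, SE 0.30, adjusted p = 0.00104) and 1932, 1626, 1500 and 497 in ob/ob females (-1.47, SE 0.30, adjusted p = 5.8e-04). All 8 obese values lay below all lean values. In males it read 2500, 1694, 2601 and 3369 in the lean, 1062, 1307, 1143 and 1231 in ob/ob (-1.05, SE 0.30, adjusted p = 0.0173, lost without lean replicate 4 at -0.90) and 819, 1761 and 1429 in the diet-induced obese (-0.94, not called). Dlat, the acetyltransferase of the complex, read 488, 536, 534 and 488 in lean females, 311, 294, 284 and 117 in Ay/+ (-1.04, SE 0.20, adjusted p = 5.8e-04) and 292, 301, 282 and 323 in ob/ob females (-0.73, SE 0.20, adjusted p = 0.00910). The second Dlat probe set was called in neither (0.55 and -0.57) and was lower in ob/ob than in Ay/+ females (-1.12, SE 0.36, adjusted p = 0.0258). Dld, the dihydrolipoamide dehydrogenase that the pyruvate and 2-oxoglutarate complexes share, fell in Ay/+ females to 919, 351, 369 and 280 from 1307, 1288, 1341 and 1442 (-1.60, SE 0.25, adjusted p = 3.2e-05). The ob/ob females read 983, 1099, 1070 and 732, below lean without a call (-0.48), and above Ay/+ by 1.12 (SE 0.25, adjusted p = 0.00191). On the later arrays alone, with 1 array per group and both of them standing apart, that last difference was -0.32.

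Around the cycle, Cs, citrate synthase, read 2078, 2466, 1779 and 2630 in lean females and 1199, 843, 1102 and 1012 in Ay/+ females (-1.09, SE 0.22, adjusted p = 8.6e-04), without overlap. The ob/ob females read 1664, 1993, 1769 and 879, overlapping lean (-0.55, SE 0.22, adjusted p = 0.0689). In ob/ob males it fell to 917, 1165, 1201 and 973 from 1810, 1553, 2310 and 2192 (-0.86, SE 0.22, adjusted p = 0.00715). Idh3a, the catalytic subunit of the NAD-dependent isocitrate dehydrogenase, was called in none of the obesity comparisons, with differences of 0.14 and 0.09 in ob/ob and Ay/+ females and of -0.32 and 0.11 in ob/ob and diet-induced obese males. Its partner subunit Idh3g fell in ob/ob females (-0.64, SE 0.20, adjusted p = 0.0171), a call lost without lean replicate 2 or ob/ob replicate 4 (-0.56 and -0.40). The second Idh3g probe set was dim and overlapped, with means of 45.0 in lean and 25.8 in ob/ob females.

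Genes of the 2-oxoglutarate to succinate steps were called lower in each genetic model. Suclg1, the alpha subunit of succinyl-CoA ligase, read 1248, 1558, 2008 and 1262 in lean females, 1153, 803, 984 and 601 in Ay/+ (-0.78, SE 0.19, adjusted p = 0.00385) and 650, 744, 725 and 479 in ob/ob females (-1.19, SE 0.19, adjusted p = 1.9e-05). Dlst, the succinyltransferase of the 2-oxoglutarate dehydrogenase complex, fell in Ay/+ females (-1.04, SE 0.22, adjusted p = 0.00120) and in ob/ob males (-0.67, SE 0.22, adjusted p = 0.0446), the latter lost without any one of the 8 arrays (-0.74 to -0.61). Its second probe set did not follow in either (-0.12 and -0.04, SE 0.32 each). Ogdh, the decarboxylase of that complex, read 1113, 1331, 1040 and 1224 in lean and 589, 684, 777 and 567 in ob/ob males (-0.83, SE 0.24, adjusted p = 0.0182, lost without lean replicate 2 or ob/ob replicate 1 or 4 at -0.78 to -0.77). It was not called in females (-0.19 and -0.17). Diet-induced obese males read 389, 747 and 802, below the lean males and not called (-0.90, SE 0.26, adjusted p = 0.0662). Fh1, fumarase, fell in ob/ob mice of both sexes, by 0.69 in females (SE 0.20, adjusted p = 0.0122, lost without lean replicate 4 at -0.49) and by 0.98 in males (SE 0.20, adjusted p = 7.1e-04). It was lower in ob/ob than in Ay/+ females by 0.72 (SE 0.20). Idh2, Mdh1 and Mdh2, which make mitochondrial NADPH and interconvert malate and oxaloacetate in the cytosol and the mitochondrion, were called in no obesity comparison. Between ob/ob and Ay/+ females Cs (0.54), Idh3a (0.05) and Ogdh (-0.02) were not called, and Cs was not in diet-induced obese males (-0.74, SE 0.24, adjusted p = 0.124).

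**Figure D5:**
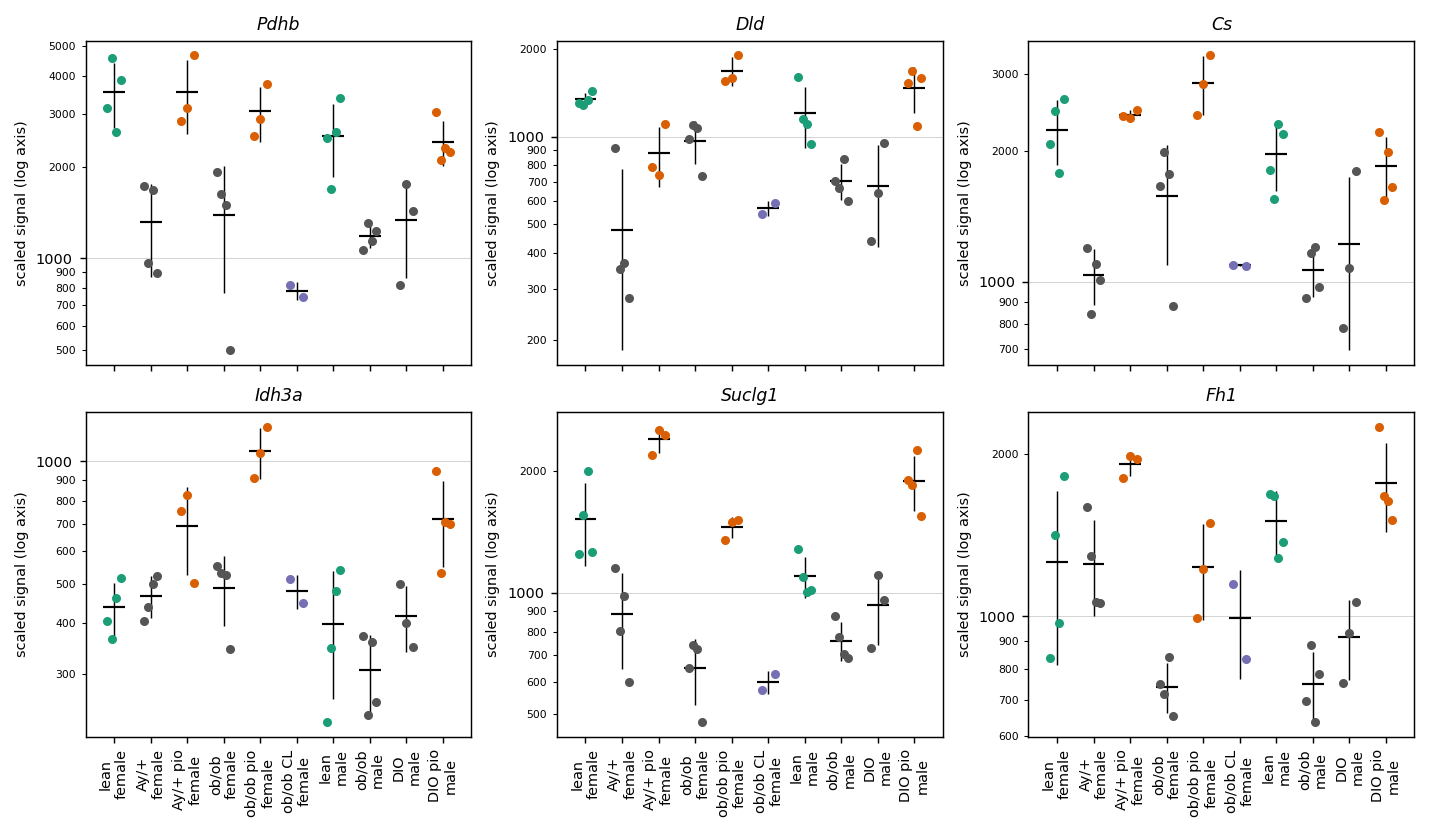
Scaled signal (log axis) of 6 TCA cycle genes on each array, by group; points are arrays, bars the group mean and vertical lines the SD, with green lean, grey untreated obese, orange pioglitazone and purple CL316243. Pdhb lies below the lean females on every untreated obese female array, and Idh3a does not separate lean from obese.

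TCA cycle genes rose with pioglitazone in each model, with 8 of 13 in Ay/+ females, 4 in ob/ob females and 5 in diet-induced obese males called higher and none lower. Over all probe sets 2.13%, 0.733% and 0.757% were called higher, and 0.910%, 0.330% and 0.660% lower. The medians were 0.90, 0.78 and 0.82. Dlat and Suclg1 were called in every model, and Idh2, Mdh1 and Ogdh in none. The second Dlat probe set overlapped between untreated and treated arrays in each model. Its means without and with the drug were 149 and 133 in Ay/+ females, 51.0 and 60.9 in ob/ob females and 74.6 and 54.7 in males. The comparisons with pioglitazone share the untreated obese arrays with those against lean mice. In Ay/+ females Suclg1 rose to 2198, 2531 and 2465 (1.45, SE 0.20, adjusted p = 1.8e-05), Pdhb to 2845, 3121 and 4667 (1.44, SE 0.32, adjusted p = 0.00753) and Cs to 2407, 2378 and 2490 (1.22, SE 0.24, adjusted p = 0.00187). For Pdhb, whose call was lost without treated replicate 3 (1.23), the treated values lay within the lean female range of 2617 to 4566 apart from the highest. Dlst rose by 1.11 (SE 0.24), its second probe set differed by 1.17 without a call, and Idh3g rose by 0.99 (SE 0.21). The second Idh3g probe set was dim and overlapped, with means of 48.2 without and 62.9 with the drug. Dlat (0.90), Dld (0.97) and Mdh2 (0.67) were also called, and Idh3a (0.53) and Ogdh (0.48) were not.

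Among ob/ob females the genes called were Pdhb, Dlat, Idh3a and Suclg1. Suclg1 rose to 1353, 1496 and 1511 (1.15, SE 0.20, adjusted p = 9.2e-04), Dlat to 580, 725 and 708 (1.10, SE 0.22, adjusted p = 0.00501) and Idh3a from 551, 530, 525 and 345 to 910, 1051 and 1216 (1.10, SE 0.24, adjusted p = 0.0121). Pdhb rose to 2533, 2883 and 3755 (1.27, SE 0.32, adjusted p = 0.0446), a call lost without untreated replicate 3 or 4 or any treated array (0.84 to 1.39). Cs read 2425, 2848 and 3316, above every untreated array, and was not called (0.90, SE 0.24, adjusted p = 0.0569), nor was Ogdh (0.58). In diet-induced obese males Dlst rose from 182, 286 and 364 to 827, 676, 564 and 863 (1.36, SE 0.24, adjusted p = 8.0e-04). The second Dlst probe set did not follow there (0.05, SE 0.35). Dlat rose by 1.15 (SE 0.22), Dld by 1.14 (SE 0.27), Suclg1 by 1.01 (SE 0.20) and Fh1 by 0.92 (SE 0.22). The call on Dld was lost without untreated replicate 1 or 2 or treated replicate 2 or 4 (0.88 to 1.14). Cs (0.66), Idh3a (0.75) and Ogdh (0.82) were higher without a call.

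With CL316243 limma called no TCA cycle gene against untreated, and 1 had an unadjusted p under 0.05 (median -0.12). Cs differed by -0.46 (SE 0.27), and Idh3a and Ogdh each by -0.01 (SE 0.27 and 0.29). Against pioglitazone 8 of the 13 were lower with CL316243 and none higher (median -1.10), against 4.69% and 2.91% of all probe sets. Pdhb read 818 and 743 with CL316243 against 2533, 2883 and 3755 (-1.92, SE 0.39, adjusted p = 0.00158). Dld (-1.53, SE 0.32), Dlat (-1.50, SE 0.26), Cs (-1.36, SE 0.29) and Suclg1 (-1.24, SE 0.24) followed, then Dlst (-1.12), Idh3a (-1.10) and Idh3g (-0.88), and Ogdh was not called (-0.60). The second Dlat probe set was not lower, at 75.1 and 126 with CL316243 and 45.3, 87.3 and 50.2 with pioglitazone. Over both pathways 18 members differed between the drugs, and 10 and 11 without CL316243 replicate 1 and 2. The call on Dld was lost without CL316243 replicate 1 (-1.47) and that on Idh3a without either CL316243 array or pioglitazone replicate 3.

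Other genes of these pathways, named in further lists, gave a partly similar picture. Of 13 other fatty acid oxidation genes, 3 rose with pioglitazone in Ay/+ females, 3 in ob/ob females and 5 in diet-induced obese males, and none fell. Over all probe sets 2.13%, 0.733% and 0.757% rose. Fabp3, a fatty acid binding protein of oxidative tissues, rose by 2.01, 2.76 and 1.89 (SE 0.40 each), and Acaa1b, the copy of Acaa1a, by 1.47, 1.33 and 1.51 (SE 0.24 each). In obesity 5 of the 13 fell in ob/ob females, led by Pex11a, a peroxisome division factor (-1.84, SE 0.26), and 5 in ob/ob males, again led by Pex11a (-1.97, SE 0.26). Over all probe sets 14.0% and 4.96% fell. In Ay/+ females 2 fell, Fabp3 (-1.48) and Acsl4 (-0.90), and Oxct1, an enzyme of ketone body use, rose (0.92, SE 0.18). These shares were near those over all probe sets, 11.5% lower and 6.26% higher. None was called in diet-induced obese males or with CL316243 against untreated.

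Of 25 other TCA cycle and pyruvate genes, 8, 5 and 4 rose with pioglitazone in the 3 models, and none fell, against 2.13%, 0.733% and 0.757% of all probe sets higher. Pdk4, the kinase that inhibits pyruvate dehydrogenase, rose by 1.56, 1.77 and 3.60 (SE 0.40 each), and Me1, cytosolic malic enzyme, by 1.64, 0.96 and 1.40 (SE 0.25 each). In obesity 10 fell and 2 rose in ob/ob females, 9 fell and 1 rose in Ay/+ females, and 5 and 3 fell in ob/ob and diet-induced obese males with none higher. Over all probe sets 14.0% fell and 10.3% rose in ob/ob females, and 11.5% and 6.26% in Ay/+ females. In ob/ob and diet-induced obese males 4.96% and 0.628% fell, and 5.62% and 1.22% rose. The shares of this list that rose in females were below those over all probe sets. Pdha1, the partner of Pdhb, fell by 1.32, 1.93, 1.36 and 1.08 in ob/ob females, Ay/+ females, ob/ob males and diet-induced obese males. Me1 fell in both female models (-1.68 and -2.25) and in ob/ob males (-1.33, SE 0.23 each). Pcx, pyruvate carboxylase, fell in ob/ob males (-2.53, SE 0.32). Glud1 (0.83) and Slc25a10 (0.89) rose in ob/ob females and Got2 (1.10) in Ay/+ females. With CL316243 Pdk3 (-1.29) and Slc25a11 (-0.69) were lower than untreated, against 2.18% of all probe sets.

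Of 10 measured regulators, limma called none with pioglitazone in any model, and 4, 2 and 1 had an unadjusted p under 0.05, with medians of 0.29, 0.23 and 0.05. Nrip1, a corepressor of oxidative genes, was lower in ob/ob females (-1.13), Ay/+ females (-1.13) and ob/ob males (-1.22, SE 0.30 each). Gabpa, a factor for nuclear genes of the respiratory chain, was lower in Ay/+ females (-0.85, SE 0.27), and Lpin1, a phosphatidate phosphatase and coactivator, in ob/ob males (-0.97, SE 0.19). Ppara, the receptor that drives these genes in liver, was lower with CL316243 than with pioglitazone (-1.48, SE 0.45). Pparg, the receptor that pioglitazone binds, was lower in ob/ob males (-1.21, SE 0.23, adjusted p = 2.3e-04) and diet-induced obese males (-0.99, SE 0.24, adjusted p = 0.0232). It was higher in lean males than in lean females (0.82, SE 0.23, adjusted p = 0.0150).

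Promoters of the members were searched for the direct repeat that PPAR gamma and its partner RXR bind, because many members rose together with its agonist. RefSeq promoters of the GRCm38.p6 table, 250 bases before to 50 bases after the start, were matched for 29 of the 33 measured members. The motif was AGGTCANAGGTCA on either strand. Of 32851 promoters, 0.0396% held it with no mismatch, 0.554% with at most 1 and 3.86% with at most 2. None of the 29 members held it with at most 1 mismatch, and 3 did with at most 2, those of Slc25a20, Etfa and Echs1. The element TNAAGGTCA of the estrogen-related receptors, which overlaps the first in the letters AGGTCA, was in 1.28% of promoters and in none of the 29. The stretches around the 3 matches are shown 5′ to 3′ on the gene's strand with the match in capitals, on chr9:108662112-108662160 (plus strand), chr9:55512278-55512350 (minus) and chr7:140116462-140116534 (minus).
Slc25a20: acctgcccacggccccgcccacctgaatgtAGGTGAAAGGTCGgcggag
Etfa: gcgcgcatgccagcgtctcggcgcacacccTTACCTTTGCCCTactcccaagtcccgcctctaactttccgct
Echs1: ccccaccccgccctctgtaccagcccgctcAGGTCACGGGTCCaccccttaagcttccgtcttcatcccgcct
The match begins at position 6 from the start site in Slc25a20, whose stretch is shown only to shortly after the start, -77 in Etfa, where it lies on the opposite strand, and -83 in Echs1. Slc25a20 and Etfa were called higher with pioglitazone in every model and Echs1 in none. The members' promoters had a median GC content of 60.3% (n = 29), beside 52.7% over all promoters. A match is a description of letters and not of binding, and its absence from this window says nothing of the receptor.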

How the data were processed

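The deposited values are MAS5 signals, intensities on a linear scale with 1 value per probe set, per the submitters' processing notes; no version, detection call or scaling target is given in the sources used here. The deposited array experiment files, with other settings of hybridisation and scanning, served only to assign arrays to batches and 13 scan days, per the file headers. Signals were multiplied per array to give a 2% trimmed mean of 250 (the deposited ones ran from 250 to 1680), 66 control probe sets were left out, and a pseudocount of 23, the 25th percentile of scaled signals, was added before log2. Of 12488 probe sets, 10833 had 1 gene symbol, 396 several and 1193 none. No 2 arrays held identical values, and correlations between arrays ran from 0.812 to 0.980.

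A linear model with a mean for each of the 10 groups was fitted to the 35 arrays (limma 3.58.1, eBayes with trend, R 4.3.3), with Benjamini-Hochberg adjustment over 12422 probe sets within each comparison. The step was tested on simulated data. Python 3.11.15, pandas 2.3.3 and scipy 1.17.1 made the tables and matplotlib 3.10.9 the figures. The number of arrays, 2 to 4 per group, limits the precision. A gene was read by its probe set with the highest mean log2 signal. The members and lists were chosen with earlier results of these data known. Per comparison and pathway, the text names up to 5 called members that rose most and 5 that fell most, always Cpt1a, Acadm, Acadvl, Cs, Idh3a and Ogdh, and up to 3 called genes per direction of the other lists. Alternatives were quantile normalization, a pseudocount of 1, a filter on dim probe sets, the mean of a gene's probe sets, batch, scan day or replicate number as a block, each batch alone, the compared groups alone, and leaving out arrays.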

Additional observations from a re-analysis of the deposited data

Results flagged for a closer look

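The ob/ob effect on Echs1 differed between the sexes by a log2 difference of -1.93 (SE 0.41, adjusted p = 0.00434), tested with an interaction term. The other results listed here are arrays far from the other 3 of their group. In 198 gene and group sets of 4 arrays, 19 (9.60%) had 1 array whose gap to its nearest neighbour exceeded Dixon's critical value, where chance gives about 1 in 20. The genes share arrays, so these sets are not independent.

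Replicate 4 of the ob/ob females, an array that stood apart, was the low one for Slc25a20 (390, others 861 to 949), Ech1 (1448, others 3176 to 3323), Idh2 (132, others 487 to 547) and Idh3a (345, others 525 to 551), and the high one for Acadvl (19.5, others 0.546 to 3.18). Replicate 1 of the Ay/+ females was the high one for Cpt1a (1625, others 380 to 523), Acaa1a (1533, others 900 to 986) and Dld (919, others 280 to 369). Replicate 4 of the Ay/+ females was low for Dlat (117, others 284 to 311) and Ech1 (3584, others 3786 to 3821). Replicate 4 of the lean females was high for Crat (583, others 357 to 385) and Acadl (825, others 416 to 484). Replicate 4 of the ob/ob females, replicate 1 of the Ay/+ females and replicate 4 of the lean females were each the only later array of their group. For them, batch and single array cannot be told apart.

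Among ob/ob males, replicate 3 was high for Crat (564, others 357 to 387) and Mdh1 (181, others 135 to 142), replicate 4 for Etfdh (389, others 227 to 243) and Idh3g (1141, others 964 to 969), and replicate 1 low for Dlat (216, others 279 to 286). Replicate 1 of the pioglitazone-treated diet-induced obese males, with the high Gapdh ratio, was high for Acaa1a (2763, others 1775 to 1880) and Ogdh (1794, others 893 to 1026).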

How the results depend on the processing

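The 3 pioglitazone interaction terms gave 0 members under each alternative run, and 237 of 293 counts under alternatives lay within 1.5 times the main count. The others follow, with the main count first. They are counts of members alone, and the share of all probe sets called under each alternative is not given. For the compared groups alone the count went from 10 to 4 (Ay/+ against lean), 9 to 2 (ob/ob against Ay/+), 20 to 6, 12 to 0 and 15 to 5 (pioglitazone in Ay/+, ob/ob and diet-induced obese mice) and 4 to 0 (CL316243). On the earlier arrays it went from 9 to 15 (ob/ob against Ay/+), 1 to 6 (diet-induced obesity), 4 to 13 (CL316243) and 15 to 8 (pioglitazone in males). On the later arrays it went from 8 to 14 and 10 to 1 (ob/ob and Ay/+ against lean females), 9 to 3 (ob/ob against Ay/+), 1 to 0 (diet-induced obesity), 15 to 2 (pioglitazone in males), 4 to 1 (lean sexes) and 1 to 2 (sex difference of the ob/ob effect). Without the 4 doubted arrays it went from 10 to 17, 9 to 15, 1 to 9, 4 to 13, 4 to 9 and 1 to 11 for Ay/+ against lean, ob/ob against Ay/+, diet-induced obesity, CL316243, the lean sexes and the sex difference. Scan day as a random block gave 6, 0, 2 and 0 for pioglitazone in ob/ob females, CL316243, the lean sexes and the sex difference. Batch as a block gave 2 for diet-induced obesity and 2 for CL316243, the filter 2 for diet-induced obesity and 3 for the sex difference, and quantile normalization 2 for CL316243 and 3 for the sex difference. Leaving out 1 array gave 0 to 4 (diet-induced obesity), 1 to 14 (pioglitazone in ob/ob), 0 to 8 (CL316243), 10 to 16 (CL316243 against pioglitazone), 6 to 14 (pioglitazone in males), 2 to 4 (lean sexes) and 1 to 6 (sex difference).

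Of 908 alternative values of 87 named calls, 777 kept direction and call, 122 lost the call and 9 reversed, all on the later arrays with 1 female array per group: Acads (-0.47) and Etfdh (0.03) in Ay/+ against lean, Cpt1a (-0.07), Crat (-0.54), Etfdh (-0.62), Acadl (-0.46), Acads (0.31) and Dld (-0.32) in ob/ob against Ay/+, and Echs1 (-0.13) between lean sexes. The later Ay/+ and ob/ob female arrays are both among those that stood apart. Of the calls lost, 40 were for the compared groups alone and 27 on the later arrays. Replicate numbers did not pair the samples, since in 0 of 11 comparisons every pair correlated above 0.1 (-0.298 to 0.19), and a replicate block left 2 calls for CL316243 where there were 4. Quantile normalization moved the median of all probe sets by over 0.1 in ob/ob against lean females (-0.18 to -0.05), between lean sexes (-0.20 to -0.01), in the sex difference (0.23 to 0.03) and in the pioglitazone effect between males and Ay/+ females (-0.13 to -0.01). Signals near the pseudocount limit Acadvl and Ehhadh. The causes of these shifts were not tested.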
